A study of Mus musculus with 24 samples.

Results

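The aryl hydrocarbon receptor (AHR) and CYP1 genes were followed in the lungs and retinas of newborn mice that breathed room air (RA) or high oxygen (hyperoxia). They were chosen by name and comprise 7 genes: Ahr, its partner Arnt, the feedback genes Ahrr and Tiparp, and the monooxygenase genes Cyp1a1, Cyp1a2 and Cyp1b1. All 7 were listed among the 36109 genes of the lung table and the 36595 genes of the retina table. Of these, 5 passed the filter on low counts in each tissue and were tested, among 16819 lung genes and 19173 retina genes, while Cyp1a1 and Cyp1a2 did not pass it. Ahr was lower after hyperoxia in the lungs of both genotypes and higher in the hyperoxia-exposed WT retina, while almost no Cyp1a1 or Cyp1a2 was counted anywhere.

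RNA-seq was carried out on 12 whole lungs and 12 retinas, each tissue with 4 groups of 3 mice. Gasdermin D knockout (GSDMD-KO) mice carry a short CRISPR/Cas9 deletion in an exon of Gsdmd in every cell of the body, on a C57/B6 background, and were compared with wildtype (WT) littermates. For the lung, a model of bronchopulmonary dysplasia, pups were kept in 85% O2 (WT-O2, KO-O2) or in 21% O2 (WT-RA, KO-RA) from postnatal day 1 to 14 and the lungs were taken on day 15. For the retina, a model of retinopathy of prematurity, pups were kept in 75% O2 from day 7 to 12 and then returned to room air, or were kept in room air throughout, and the retinas were taken on day 18. The retinas of the WT-O2 and KO-O2 groups had therefore left high oxygen before collection, whereas the lungs had not been returned to room air for such a recovery. In RNA from whole tissue, fewer cells of a type and less RNA per cell cannot be told apart.

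AHR is a transcription factor that waits in the cytosol bound to HSP90 and, once a ligand binds, enters the nucleus and pairs with ARNT. The pair binds response elements whose core is GCGTG and switches on Cyp1a1, Cyp1a2 and Cyp1b1, whose products oxidize polycyclic hydrocarbons, hormones and other small molecules. AHRR, a repressor that competes for ARNT, and TIPARP, an ADP-ribosyltransferase that acts on AHR, are targets of the same pair and damp it. CYP1A enzymes are known for their part in the response of the newborn lung to oxygen, and loss of CYP1B1 is known to disturb the vessels and outflow tissue of the eye. ARNT is also the partner of the hypoxia-inducible factors.

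The totals assigned to genes ran from 28763450 to 29604069 counts per lung and from 24863225 to 29093010 per retina. Levels are CPM, counts scaled to the size of each library with TMM factors. Gsdmd itself was between 32.1 and 42.3 CPM in WT lungs, and GSDMD-KO lungs held 11.7 to 24.8 CPM, with no overlap. In the retina Gsdmd was low, and the genotypes overlapped: the retina labelled WT-RA GSD382 held 0.419 CPM, below all 6 GSDMD-KO retinas, and the retina labelled KO-O2 GSD310 held 2.95 CPM, inside the WT-O2 range of 2.90 to 5.70. Genotype in the retina is therefore given as labelled. Values without these libraries are given for some results of the members, and not for single pathway genes or marker sums. Lens transcripts exceeded 1000 CPM in 3 retinas, all in room air (GSD382 and GSD383 of WT-RA and GSD304 of KO-RA). The KO-O2 lung GSD061 held liver transcripts at 167 CPM, against 1.41 to 3.24 CPM in lungs of the other groups. Y-linked transcripts were found in 0, 1, 2 and 3 of 3 lungs and in 3, 1, 3 and 1 of 3 retinas of WT-RA, WT-O2, KO-RA and KO-O2, so sex was not balanced between groups.

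The promoter sequences of the CYP1 and feedback genes are shown because the GCGTG core is what AHR and ARNT read in their targets. RefSeq start sites of GRCm38.p6 were given for 6 of the 7 members, with windows of 250 bases before to 50 bases after the start site. The window was searched on both strands, and at least 1 match was present in 32.4% of all 32851 windows. Ahrr had 3 matches, at 107, 82 and 27 bases before the start site, and 3.91% of windows had at least as many. Arnt, Tiparp, Cyp1a1 and Cyp1b1 had 1 each, and Cyp1a2 had none. Sequence farther from the start sites was not searched, so these counts cover the windows only. No entry was used for Ahr. The 250 bases before the start site of 4 members are printed 5′ to 3′ on the gene's strand, with matches in capitals (CACGC is the match on the opposite strand). They lie at chr9:57697363-57697612 (Cyp1a1, plus strand), chr17:79715062-79715311 (Cyp1b1, minus strand), chr13:74292332-74292581 (Ahrr, minus strand) and chr3:65528197-65528446 (Tiparp, plus strand).
Cyp1a1: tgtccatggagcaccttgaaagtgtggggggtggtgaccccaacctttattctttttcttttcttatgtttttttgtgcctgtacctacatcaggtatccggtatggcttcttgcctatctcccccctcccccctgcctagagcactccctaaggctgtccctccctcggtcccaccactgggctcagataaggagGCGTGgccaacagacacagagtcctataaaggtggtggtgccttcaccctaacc
Cyp1b1: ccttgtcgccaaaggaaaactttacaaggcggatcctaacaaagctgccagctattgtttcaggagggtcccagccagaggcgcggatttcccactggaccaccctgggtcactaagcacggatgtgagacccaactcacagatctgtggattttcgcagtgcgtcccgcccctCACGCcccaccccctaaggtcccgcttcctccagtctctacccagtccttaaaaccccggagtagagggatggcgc
Ahrr: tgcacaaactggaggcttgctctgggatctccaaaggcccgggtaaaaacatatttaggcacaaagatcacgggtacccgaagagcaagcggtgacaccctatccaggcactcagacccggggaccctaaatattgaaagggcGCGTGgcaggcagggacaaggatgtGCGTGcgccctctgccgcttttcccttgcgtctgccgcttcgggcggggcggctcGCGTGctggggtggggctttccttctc
Tiparp: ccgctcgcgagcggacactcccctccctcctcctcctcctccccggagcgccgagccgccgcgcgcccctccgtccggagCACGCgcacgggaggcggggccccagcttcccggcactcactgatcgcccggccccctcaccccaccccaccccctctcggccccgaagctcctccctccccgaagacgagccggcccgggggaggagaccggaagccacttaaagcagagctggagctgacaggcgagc
A match is a description of these letters and not a measured binding site.

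In the lung, Ahr, which encodes the receptor, was lower after hyperoxia in both genotypes. The 3 WT-RA lungs held 134, 158 and 120 CPM and the 3 WT-O2 lungs 72.9, 58.4 and 56.0 CPM, so the groups did not overlap. The KO-RA lungs held 144, 96.8 and 107 CPM and the KO-O2 lungs 73.7, 74.5 and 78.7 CPM, again without overlap. The fall was 2.20-fold in WT (log2 fold change -1.14, SE 0.146, adjusted p = 4.24e-05 by the quasi-likelihood test of edgeR, Benjamini-Hochberg adjusted over all tested genes) and 1.53-fold in GSDMD-KO (log2 fold change -0.62, SE 0.145, adjusted p = 0.00438). Here and below, a gene passed when its adjusted p was under 0.1. The difference between the falls was 0.52 on the log2 scale (95% interval 0.08 to 0.96), with an unadjusted p of 0.0244 and an adjusted p of 0.682 for the interaction of genotype and hyperoxia in edgeR, and did not pass. Without the liver-containing lung GSD061 the value in GSDMD-KO was -0.60 (adjusted p = 0.0203 in edgeR), and with Y-linked expression as a term the values were -1.02 and -0.48 (adjusted p = 3.22e-05 and 0.00740), which passed.

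Arnt, the partner of AHR, was a steady transcript of the lung. The WT-RA lungs held 94.9, 89.9 and 84.3 CPM and the WT-O2 lungs 103, 98.9 and 101 CPM. The KO-RA lungs held 97.1, 98.6 and 97.8 CPM and the KO-O2 lungs 110, 100 and 109 CPM. WT-O2 lungs were all above WT-RA lungs, and the spread inside each group was a few CPM. The rise in WT was 1.12-fold (log2 fold change 0.17, SE 0.0689, adjusted p = 0.0623 in edgeR) and passed. This call did not hold without any of the lungs GSD399, GSD400, GSD403 or GSD406 in turn (adjusted p up to 0.173). In GSDMD-KO the value was 0.12 (SE 0.0688, adjusted p = 0.173) and did not pass.

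The feedback genes did not pass in the lung. Tiparp, the ADP-ribosyltransferase gene, measured 51.2, 41.8 and 28.3 CPM in WT-RA and 43.2, 39.2 and 30.8 CPM in WT-O2, and the groups overlapped. It measured 29.9, 35.2 and 41.1 CPM in KO-RA and 39.5, 42.4 and 39.6 CPM in KO-O2. The log2 difference was -0.10 in WT (95% interval -0.51 to 0.31) and 0.19 in GSDMD-KO (-0.22 to 0.61). Ahrr, the repressor gene, was close to the limit of these libraries, between 0.405 and 1.33 CPM (12 to 38 counts) in the 12 lungs. Its log2 difference was -0.14 in WT (95% interval -1.07 to 0.79) and 0.02 in GSDMD-KO (-0.86 to 0.91).

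Cyp1b1, the CYP1 enzyme gene of mesenchymal and other non-liver cells, was higher after hyperoxia in the WT lung. It measured 5.10, 4.78 and 3.30 CPM in WT-RA and 8.08, 6.06 and 6.08 CPM in WT-O2, without overlap. The rise was 1.53-fold (log2 fold change 0.62, SE 0.191, adjusted p = 0.0181 in edgeR) and passed with each mouse left out (adjusted p at most 0.0898). KO-RA lungs held 5.64, 5.62 and 5.97 CPM and KO-O2 lungs 4.37, 4.78 and 6.22 CPM. These groups overlapped, and the value was -0.16 (SE 0.191, adjusted p = 0.531). The difference between the genotypes was -0.78 (95% interval -1.36 to -0.20), with an unadjusted p of 0.0115 and an adjusted p of 0.595 for the edgeR interaction, which did not pass.

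Cyp1a1 and Cyp1a2, the classical AHR-induced genes, were at or near 0 in the lung. Cyp1a1 had 3, 2 and 10 counts in the WT-RA lungs and 1, 0 and 0 in the WT-O2 lungs. The KO-RA lungs had 4, 0 and 0 counts of it and the KO-O2 lungs 2, 1 and 0. Of the 15 counts of WT-RA, 10 came from the lung GSD400. Without the filter on low counts the WT difference of Cyp1a1 had an adjusted p of 0.0696 in edgeR, a value that rests on these few counts. Cyp1a2 had 0 counts in 11 lungs and 2 counts in GSD061, the lung with liver transcripts. The liver is the main site of Cyp1a2, but whether these 2 counts came from liver RNA was not tested. A count of 0 allows up to 3 counts, which is 0.1004 to 0.106 CPM in these lungs, so levels under that limit were not detectable at this depth.

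**Figure D1:**
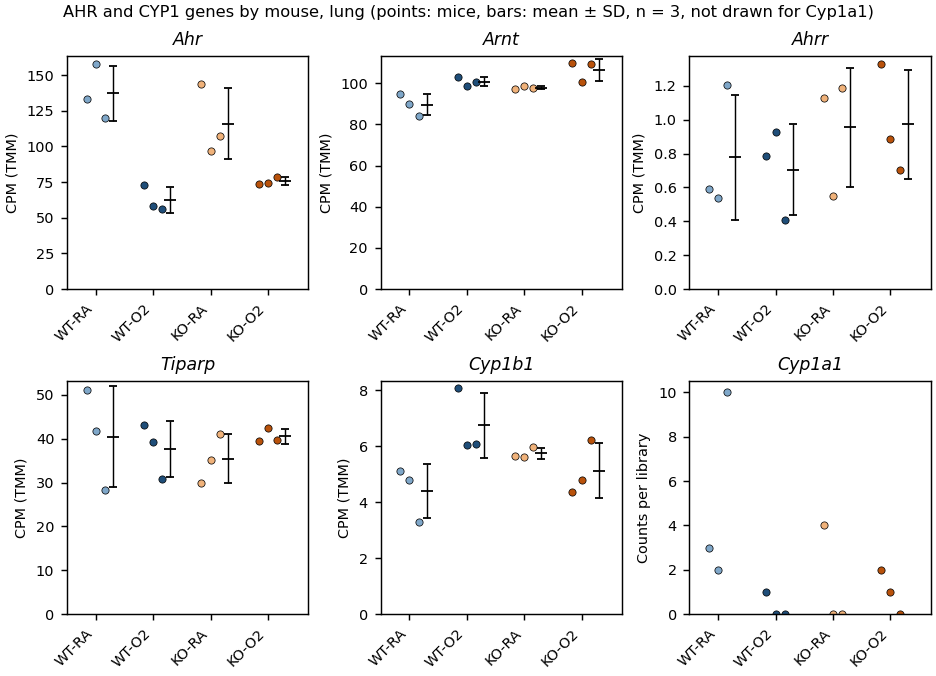
Levels of 6 genes in each lung, in CPM with TMM factors (counts per library for Cyp1a1), with groups on the x axis, points for mice and bars for mean ± SD of 3 mice. Ahr sits between 96.8 and 158 CPM in room air and between 56.0 and 78.7 CPM in hyperoxia, while Tiparp and Ahrr overlap between groups.

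Of the 5 members tested in the lung, 3 passed in WT (Ahr lower, Arnt and Cyp1b1 higher), where 49.2% of all tested genes passed (24.5% higher and 24.7% lower). In GSDMD-KO 1 of 5 passed (Ahr lower), where 46.7% of all tested genes passed (23.3% higher and 23.4% lower). The groups did not overlap for 3 members in WT, against 49.8% of all genes, and for 2 in GSDMD-KO (Ahr and Arnt), against 52.4%. With 5 members, neither share is a result about them as a set. Both hyperoxia comparisons have their own control groups.

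Genotype made no difference that passed in the lung. Between KO-O2 and WT-O2, 0 of 5 members passed in edgeR (0 at an unadjusted p under 0.05, 0 by DESeq2), and 0.0416% of all genes did. Cyp1b1 had the smallest p, with a log2 difference of -0.39 (95% interval -0.80 to 0.0116, unadjusted p = 0.0561, adjusted p = 0.815 in edgeR), and its groups overlapped. Each KO-O2 lung held more Ahr than each WT-O2 lung, at a log2 difference of 0.28 (95% interval -0.04 to 0.59, adjusted p = 0.831), which made Ahr the 1 member without overlap, against 12.2% of all genes. Between KO-RA and WT-RA, 0 of 5 passed (0 at an unadjusted p under 0.05, 0 by DESeq2), against 0.488% of all genes. Ahr was at -0.24 (SE 0.144) and Cyp1b1 at 0.39 (SE 0.192). The groups did not overlap for 2 members here, Arnt and Cyp1b1, and each KO-RA lung held more of both than each WT-RA lung. The share of all genes without overlap was not computed for this comparison. The Ahr values moved with Y-linked expression as a term, to 0.52 for KO-O2 against WT-O2 (unadjusted p = 0.00213, adjusted p = 0.365) and to -0.0180 for KO-RA against WT-RA (adjusted p = 0.991 in edgeR), and neither passed. For the interaction 0 of 5 passed (2 at an unadjusted p under 0.05, Ahr and Cyp1b1, and 0 by DESeq2), against 0.00595% of all genes.

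Per kilobase of merged exon length (GENCODE M21), Ahr was the highest member in the room-air lung and Arnt in the hyperoxia-exposed lung. In WT-RA the mean levels were 22.3 CPM per kb for Ahr, 11.2 for Arnt, 9.27 for Tiparp, 0.752 for Cyp1b1, 0.0825 for Ahrr and 0.0617 for Cyp1a1. Arnt and Tiparp overlapped there (10.5 to 11.9 against 6.49 to 11.7 CPM per kb), as did Ahrr and Cyp1a1. In WT-O2 the order was Arnt at 12.6, Ahr at 10.1 and Tiparp at 8.65 CPM per kb, with Ahr and Tiparp overlapping. In KO-O2 Arnt, at 13.3, and Ahr, at 12.3 CPM per kb, overlapped slightly.

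Many of the other genes of the pathway passed in the lung, as many lung genes did. Of 55 tested genes in 8 lists, 33 passed in WT (22 higher, 11 lower), where 49.2% of all tested genes did (24.5% higher and 24.7% lower), and 32 in GSDMD-KO (19 higher, 13 lower), where 46.7% did (23.3% higher and 23.4% lower). The counts of each list below are read against these shares. The median log2 differences over the lists were 0.20 and 0.09, against -0.01 and -0.01 over all tested genes. Of the 5 genes of the cytosolic complex that holds AHR, 1 passed, in WT. It was the chaperone gene Hsp90aa1, at 242 ± 31.5 CPM in WT-RA and 322 ± 37.4 CPM in WT-O2 (SD, n = 3, log2 fold change 0.41, SE 0.144, adjusted p = 0.0324).

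Of the enzyme genes of the AHR battery other than CYP1, 6 of 7 tested passed as higher in WT (24.5% of all genes did) and 5 of 7 in GSDMD-KO (23.3%), and 0 passed as lower in edgeR. Nqo1, the quinone oxidoreductase gene, rose from 2.37 ± 0.338 to 9.73 ± 0.885 CPM in WT, and GSDMD-KO lungs went from 2.71 ± 0.252 to 9.29 ± 1.92 CPM (SD, n = 3). Its log2 fold changes were 2.04 (SE 0.176) and 1.78 (SE 0.174). Ugt1a6a, a glucuronosyltransferase gene, rose from 21.6 ± 0.442 to 47.0 ± 3.77 CPM in WT, with GSDMD-KO lungs at 20.3 ± 1.68 and 41.8 ± 2.50 CPM. Ugt1a6b and Ugt1a7c also rose, by 1.61 and 1.21 on the log2 scale in WT and 1.29 and 1.39 in GSDMD-KO. The Ugt1a genes share their last exons, so the split of reads between them is uncertain. Nqo1 and several of these enzymes are also known targets of NRF2, the oxidant-responsive factor.

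Among 8 tested genes known to respond to AHR in some cells, 5 passed in each genotype (3 higher, 2 lower). Slc7a5, an amino acid transporter gene that also carries AHR ligands, rose by 1.00 in WT and 0.81 in GSDMD-KO, and Lpcat2, a phospholipid enzyme gene, by 0.45 and 0.55. Cdkn1b, a cell cycle inhibitor gene, fell by 0.93 and by 0.71 on the log2 scale. All of these passed in both genotypes.

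Among partners and relatives of ARNT, 4 of 7 passed in WT (2 higher, 2 lower) and 5 of 7 in GSDMD-KO (2 higher, 3 lower). Hif1a, the hypoxia-inducible factor gene, rose from 81.9 ± 4.59 to 179 ± 13.2 CPM in WT, and GSDMD-KO lungs rose from 80.7 ± 5.00 to 174 ± 17.5 CPM. Epas1, the related HIF gene abundant in lung endothelium, fell from 2075 ± 277 to 878 ± 166 CPM in WT, the same direction as Ahr, and GSDMD-KO lungs fell from 2041 ± 112 to 1001 ± 93.6 CPM. Hif3a had log2 fold changes of -1.52 (SE 0.479) and -3.40 (SE 0.516), and Arnt2, the ARNT paralog, of 1.13 (SE 0.362) and 1.80 (SE 0.368), all of which passed. Whether the genotypes differ here was covered by the interaction, which passed for 0 of 55 pathway genes (4 at an unadjusted p under 0.05, 0 by DESeq2).

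Of the 8 cytochrome P450 genes of other families, 5 passed in WT (1 higher, 4 lower) and 7 in GSDMD-KO (1 higher, 6 lower). Cyp2e1, known for ethanol oxidation, fell from 18.6 ± 0.959 to 1.38 ± 0.483 CPM in WT, and the GSDMD-KO levels were 35.1 ± 7.25 and 1.99 ± 1.78 CPM. Cyp26b1, which clears retinoic acid, fell from 54.6 ± 9.40 to 7.13 ± 2.82 CPM and from 35.7 ± 2.40 to 5.45 ± 3.19 CPM. Cyp4b1 fell by 0.75 and by 0.45 on the log2 scale, while Cyp2s1, a gene also known to respond to AHR, rose by 0.63 and 0.40. Of the electron donor and heme genes, 5 of 5 passed in WT and 3 of 5 in GSDMD-KO. Hmox1, the heme oxygenase gene, rose by 1.70 and 1.69 on the log2 scale, Cyb5r3 rose by 0.34 and 0.29, and Cyb5a fell by 0.30 and by 0.21. Por, which passes electrons to all microsomal P450 enzymes, rose by 0.39 in WT (adjusted p = 0.00122 in edgeR) and was at 0.07 in GSDMD-KO (adjusted p = 0.492).

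The coregulator and turnover genes passed for 5 of 9 in each genotype (4 higher and 1 lower in WT, 5 higher in GSDMD-KO). Ddb1, of the ubiquitin ligase that AHR can join, rose by 0.48 and 0.52, and Nrip1 by 0.61 and 0.46 on the log2 scale. Cul4b, the cullin of that ligase, rose by 0.34 in GSDMD-KO (adjusted p = 0.0424) and was at 0.16 in WT (adjusted p = 0.332). Of 6 tested genes that form or clear AHR ligands, 2 passed in each genotype. Tph1, of the serotonin route, rose by 1.46 and 2.04, and Ido2, of the kynurenine route, fell by 1.96 and by 1.69, both at levels under 1 CPM. Kynu and Il4i1 did not pass, with log2 differences of -0.23 and 0.46 in WT and -0.52 and 0.32 in GSDMD-KO. Between KO-O2 and WT-O2, 0 of 55 pathway genes passed in edgeR (7 at an unadjusted p under 0.05, 0 by DESeq2), and between KO-RA and WT-RA 0 of 55 passed (5 at an unadjusted p under 0.05, 1 by DESeq2).

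**Figure D2:**
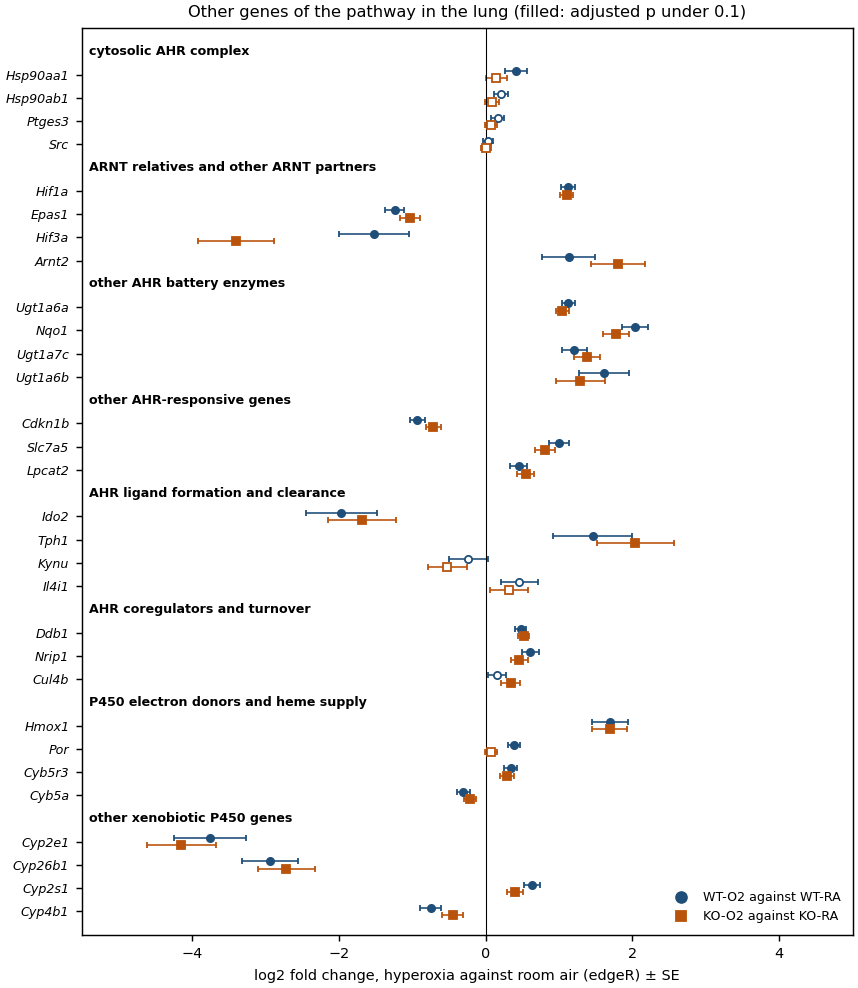
Log2 fold changes ± SE of the named pathway genes in the lung, for WT-O2 against WT-RA (circles) and KO-O2 against KO-RA (squares), with filled marks for an adjusted p under 0.1. Nqo1 lies at 2.04 and 1.78 and Cyp2e1 at -3.75 and -4.14, and both genotypes lie on the same side of 0 for all genes drawn.

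Sums of some cell type marker lists differed between the lung groups. The counts of markers are read against all tested genes, of which 24.5% passed as higher and 24.7% as lower in WT. In GSDMD-KO these shares were 23.3% and 23.4%. Of 5 neutrophil markers 0 passed in WT and 1, lower, in GSDMD-KO. Of 5 alveolar type 1 markers 2 were lower in WT and 1 in GSDMD-KO. The endothelium list summed to 4186 to 4447 CPM in WT-RA and 3365 to 3693 CPM in WT-O2 (4 of 8 markers lower, 1 higher), and to 3761 to 3999 and 3070 to 3859 CPM in KO-RA and KO-O2 (3 lower, 1 higher). The alveolar type 2 list summed to 17451 to 19073 and 12085 to 14885 CPM in WT (2 of 5 lower), and to 17819 to 19906 and 12065 to 14152 CPM in GSDMD-KO (3 of 5 lower). The fibroblast list summed to 2923 to 4018 and 4176 to 4716 CPM in WT (4 of 6 higher, 2 lower). In GSDMD-KO it summed to 3736 to 4084 and 3916 to 4966 CPM (4 higher, 2 lower). The macrophage list summed to 385 to 420 and 484 to 506 CPM in WT (6 of 8 higher, 1 lower). The GSDMD-KO macrophage sums were 326 to 347 and 406 to 503 CPM (6 higher, 1 lower). The club cell list summed to 10645 to 12817 and 8647 to 9325 CPM in WT (2 of 5 lower, 1 higher). In GSDMD-KO its sums overlapped, at 9702 to 12690 and 6541 to 9880 CPM (3 lower, 1 higher). Pericyte and smooth muscle sums overlapped in each genotype. They were 1026 to 1437 and 1364 to 1538 CPM in WT (3 of 8 higher, 2 lower), and 1026 to 1097 and 1007 to 1565 CPM in GSDMD-KO (3 higher, 4 lower). Erythroid transcripts fell in WT (6 of 6 markers lower, 15739 to 18142 against 2919 to 4151 CPM) and summed to 12661 to 26839 CPM in KO-RA and 5968 to 29922 CPM in KO-O2. No marker of the lung lists given here was at 0 in any group. Their part in the differences of Ahr, Arnt and Cyp1b1 was not tested.

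In the retina, Ahr moved the other way and was higher in WT mice that had been through hyperoxia. The 3 retinas labelled WT-RA held 15.2, 18.8 and 18.8 CPM and the WT-O2 retinas 28.2, 39.6 and 28.0 CPM, without overlap. KO-RA retinas held 21.4, 19.2 and 18.2 CPM and KO-O2 retinas 26.0, 29.7 and 22.5 CPM, also without overlap but closer. The rise was 1.82-fold in WT (log2 fold change 0.86, SE 0.158, adjusted p = 0.0185 in edgeR) and passed. It was 1.33-fold in GSDMD-KO (0.41, SE 0.157, adjusted p = 0.172) and did not pass. The difference between the genotypes was -0.45 (95% interval -0.94 to 0.04, adjusted p = 0.500 for the interaction) and did not pass. Without the retina labelled KO-O2 GSD310 the GSDMD-KO value was 0.51 (adjusted p = 0.159). Without the retina labelled WT-RA GSD382 the WT value was 0.91 (adjusted p = 0.0575), and without the 3 lens-containing retinas, which leaves 1 WT-RA retina, it was 1.06 (adjusted p = 0.0818). With Y-linked expression as a term it was 0.88 (adjusted p = 0.0872).

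Arnt did not pass in the retina. The WT-RA retinas held 35.8, 48.7 and 49.7 CPM and the WT-O2 retinas 43.8, 51.2 and 47.0 CPM. The KO-RA retinas held 45.5, 43.3 and 43.0 CPM and the KO-O2 retinas 38.2, 49.1 and 45.6 CPM, and every pair of groups compared overlapped. The log2 difference was 0.08 in WT (95% interval -0.21 to 0.37) and 0.01 in GSDMD-KO (-0.28 to 0.30). Without the lens-containing retinas the WT value was 0.40 (unadjusted p = 0.0383, adjusted p = 0.239 in edgeR), and without GSD382 it was 0.15 (adjusted p = 0.700). Without GSD310 the GSDMD-KO value was -0.00975.

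Ahrr, hardly counted in the lung, was measurable in the retina and was lower in KO-O2 than in WT-O2. WT-RA retinas held 5.36, 6.94 and 5.10 CPM, and WT-O2 retinas 10.7, 6.08 and 7.42 CPM. KO-RA retinas held 5.07, 5.11 and 5.24 CPM, and KO-O2 retinas 3.82, 3.21 and 3.26 CPM. The 3 KO-O2 retinas were the lowest of all 12. The difference between KO-O2 and WT-O2 was 2.35-fold (log2 fold change -1.23, SE 0.212, adjusted p = 0.0395 in edgeR) and passed. The call rests on single retinas: its adjusted p was 0.123, 0.120, 0.159 and 0.170 without GSD345, GSD350, GSD308 and GSD310 in turn, at log2 values of -0.98 to -1.30, and 0.105 without the lens-containing retinas. Without GSD382 the call held (-1.23, adjusted p = 0.0589 in edgeR). The difference after hyperoxia was 0.47 in WT (SE 0.209, adjusted p = 0.273) and -0.58 in GSDMD-KO (SE 0.211, adjusted p = 0.149), and neither passed. The difference between these values was -1.06 (95% interval -1.71 to -0.41), with an unadjusted p of 0.00429 and an adjusted p of 0.244 for the edgeR interaction (0.0895 by DESeq2).

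Tiparp was higher on average after hyperoxia in the retina, without passing. It measured 8.84, 6.14 and 8.39 CPM in WT-RA and 9.12, 10.9 and 11.9 CPM in WT-O2, without overlap, and 10.7, 8.68 and 8.34 CPM in KO-RA and 12.1, 14.05 and 10.2 CPM in KO-O2, with overlap. The log2 differences were 0.45 (SE 0.182, adjusted p = 0.228) and 0.39 (SE 0.180, adjusted p = 0.254) in edgeR. They were 0.30 in WT without GSD382 and 0.50 in GSDMD-KO without GSD310. Cyp1b1 was at 5.60, 5.57 and 4.63 CPM in the WT-RA retinas and at 5.70, 5.68 and 6.67 CPM in the WT-O2 retinas. The KO-RA retinas held 7.00, 4.34 and 4.53 CPM of it and the KO-O2 retinas 5.31, 8.38 and 5.66 CPM. Its log2 difference was 0.19 in WT (95% interval -0.31 to 0.69) and 0.29 in GSDMD-KO (-0.21 to 0.79), or 0.23 without GSD382 and 0.37 without GSD310. Cyp1a1 had 1, 2 and 0 counts in the WT-RA retinas and 3, 4 and 4 in the WT-O2 retinas. The KO-RA retinas had 3, 1 and 3 counts of it and the KO-O2 retinas 2, 1 and 4. Without the filter on low counts its WT log2 difference was 1.57 (unadjusted p = 0.270, adjusted p = 0.633 in edgeR). Cyp1a2 had 0 counts in all 12 retinas. A count of 0 allows up to 3 counts, or 0.0936 to 0.128 CPM in these retinas. Of the deposited retina values above 0, 0.061% were whole (within 1e-06), against 25.9% in the lung, so retina counts may have been rescaled and this limit is approximate.

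**Figure D3:**
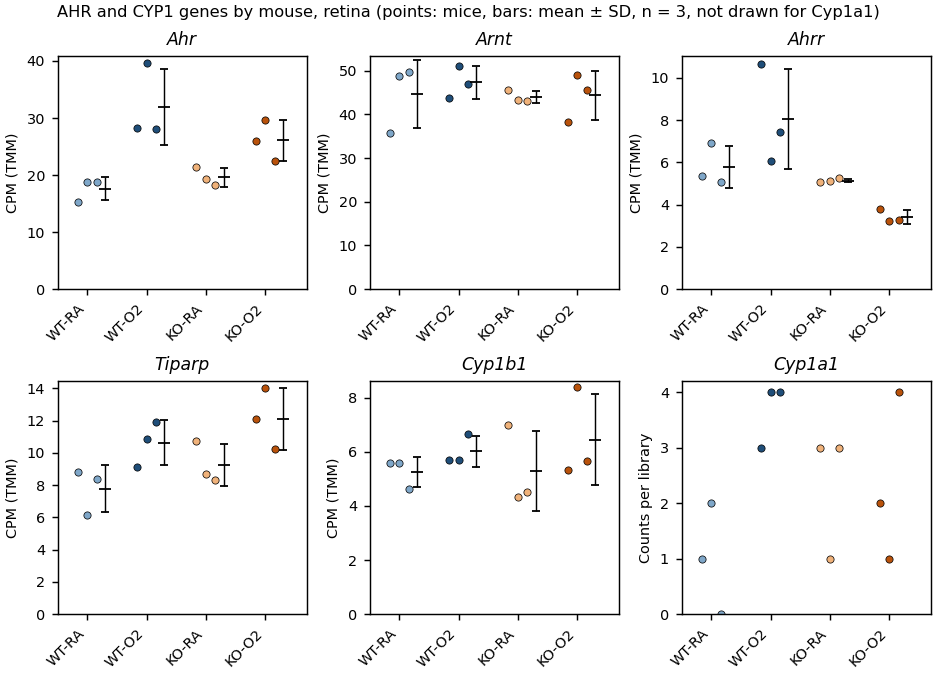
Levels of 6 genes in each retina, in CPM with TMM factors (counts per library for Cyp1a1), with groups on the x axis, points for mice and bars for mean ± SD of 3 mice. The Ahr points of WT-O2 start at 28.0 CPM, above the highest room-air retina at 21.4 CPM, and the Ahrr points of KO-O2 end at 3.82 CPM, below all other retinas.

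Of the 5 members tested in the retina, 1 passed in WT (Ahr, higher), where 5.16% of all tested genes passed (3.11% higher and 2.05% lower). In GSDMD-KO 0 of 5 passed in edgeR (2 at an unadjusted p under 0.05, Ahr and Ahrr, and 0 by DESeq2), where 7.82% of all genes passed (4.38% higher and 3.44% lower). The groups did not overlap for 3 members in WT (Ahr, Tiparp and Cyp1b1), against 24.0% of all genes, and for 2 in GSDMD-KO (Ahr and Ahrr), against 26.2%. Between KO-O2 and WT-O2, 1 of 5 passed (Ahrr, lower), against 1.27% of all genes, and 1 did not overlap, against 19.9%. Between KO-RA and WT-RA 0 of 5 passed in edgeR (0 at an unadjusted p under 0.05, 0 by DESeq2), against 0.00522% of all genes. For the interaction 0 of 5 passed (1 at an unadjusted p under 0.05 and 1 by DESeq2, Ahrr in both), also against 0.00522%.

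**Figure D4:**
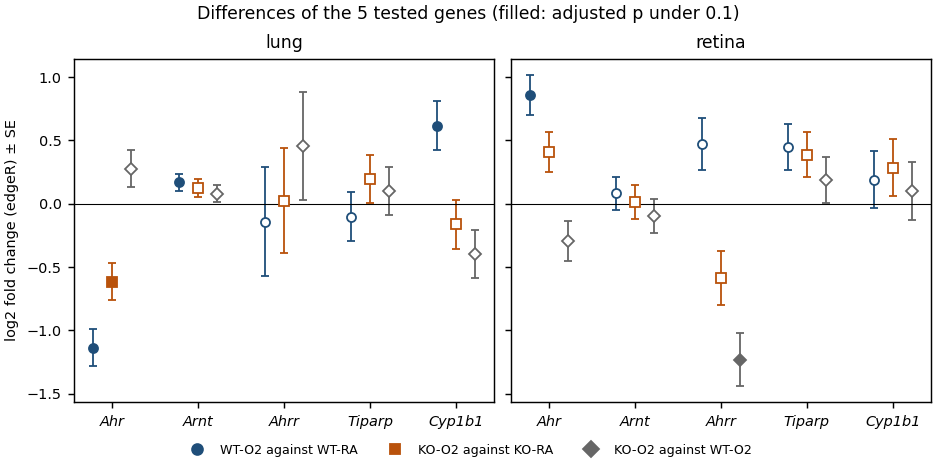
Log2 fold changes ± SE of the 5 tested genes in the lung and the retina, for WT-O2 against WT-RA (circles), KO-O2 against KO-RA (squares) and KO-O2 against WT-O2 (diamonds), with filled marks for an adjusted p under 0.1. Ahr lies at -1.14 and -0.62 in the lung and at 0.86 and 0.41 in the retina, and Ahrr in the retina lies at -1.23 for KO-O2 against WT-O2.

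Per kilobase of exon, Arnt was the highest member on average in every retina group, at 5.49 to 5.91 CPM per kb, and Ahr followed, with 2.86 and 5.19 CPM per kb in WT-RA and WT-O2 and 3.18 and 4.23 CPM per kb in KO-RA and KO-O2. Ahr and Arnt did not overlap in WT-RA or KO-RA, and overlapped in WT-O2 and, slightly, in KO-O2. Tiparp came next at 1.79 to 2.78 CPM per kb, then Cyp1b1 at 0.901 to 1.10 and Ahrr at 0.363 to 0.853. In WT-O2 Cyp1b1 and Ahrr overlapped. Set beside the lung, Ahrr was at 0.614 CPM per kb in WT-RA retinas and 0.0825 in WT-RA lungs, and Ahr at 2.86 and 22.3. The tables of the tissues were normalized separately and the retina values may have been rescaled, so these are levels side by side with no test.

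Of 49 other pathway genes tested in the retina, 3 passed in WT (2 higher, 1 lower, with 8 at an unadjusted p under 0.05 and 6 by DESeq2), where 5.16% of all genes passed, and 2 in GSDMD-KO (2 higher, with 9 and 8), where 7.82% did. Their medians were 0.03 and 0.10 on the log2 scale, against 0.00 and 0.00 over all tested genes. In WT, Lpcat2 rose from 44.9 ± 4.19 to 60.8 ± 5.82 CPM (adjusted p = 0.0605) and Nfe2l2, which encodes NRF2, from 23.7 ± 2.87 to 32.3 ± 1.78 CPM (adjusted p = 0.0679). Gstp1, a glutathione transferase gene, fell from 242 ± 35.6 to 162 ± 21.3 CPM (SD, n = 3, adjusted p = 0.0498), but it was at 141 ± 17.2 CPM in KO-RA and 159 ± 13.2 CPM in KO-O2. In GSDMD-KO, Slc7a5 rose from 47.9 ± 1.07 to 77.1 ± 20.4 CPM (adjusted p = 0.0447) and Ddb1 from 372 ± 13.4 to 469 ± 26.4 CPM (adjusted p = 0.0528), all in edgeR. In WT they were 1 of 7 battery enzymes and 2 of 8 AHR-responsive genes. In GSDMD-KO they were 1 of 8 AHR-responsive genes and 1 of 9 coregulator and turnover genes.

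The genes tested of the other 5 lists did not pass in either genotype of the retina. They numbered 5 of the cytosolic complex, 7 ARNT relatives and partners, 6 genes of ligand formation, 5 electron donor genes and 2 other P450 genes. Nqo1, which rose in the lung, measured 4.51 ± 0.338 and 2.37 ± 0.129 CPM in WT-RA and WT-O2 retinas and 7.40 ± 4.66 and 4.97 ± 0.323 CPM in KO-RA and KO-O2 (log2 differences -0.92, SE 0.338, and -0.57, SE 0.330). Ptges3, the HSP90 cochaperone gene, measured 74.7 ± 4.91 CPM in KO-RA and 61.1 ± 5.33 CPM in KO-O2 (adjusted p = 0.107). Between KO-O2 and WT-O2, 0 of 49 passed in edgeR (10 at an unadjusted p under 0.05, 4 by DESeq2), and between KO-RA and WT-RA 0 of 49 (6 and 4).

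Vascular and macrophage markers were also higher in the hyperoxia groups of the retina. Of all tested genes 3.11% passed as higher and 2.05% as lower in WT, and 4.38% and 3.44% in GSDMD-KO. The endothelium list summed to 114 to 144 CPM in WT-RA and 245 to 278 CPM in WT-O2 (8 of 8 markers higher), and to 136 to 148 and 204 to 229 CPM in KO-RA and KO-O2 (7 of 8 higher). The pericyte and smooth muscle list summed to 87.1 to 121 and 203 to 280 CPM in WT (6 of 8 higher) and to 101 to 118 and 133 to 213 CPM in GSDMD-KO (4 of 8 higher). The macrophage and microglia list summed to 33.0 to 45.4 and 56.7 to 85.02 CPM in WT and to 30.96 to 43.7 and 61.5 to 82.5 CPM in GSDMD-KO (3 of 8 higher in each). Other lists fell in WT: the Mueller glia list summed to 3005 to 4051 and 2349 to 2734 CPM (2 of 5 lower). In GSDMD-KO the Mueller glia sums overlapped, at 3036 to 3846 and 2939 to 3241 CPM (2 of 5 lower). The list of inner retina neurons summed to 888 to 1028 and 749 to 788 CPM in WT (1 of 6 lower). Its GSDMD-KO sums overlapped, at 831 to 868 and 724 to 1015 CPM. No marker of these lists was at 0 in any group. Between KO-O2 and WT-O2 retinas, beside the lower Ahrr, the rod and cone list summed to 43959 to 50969 and 54128 to 61179 CPM. Of its 6 markers 0 passed in edgeR. The erythroid list summed to 370 to 429 and 983 to 1552 CPM (4 of 5 tested markers lower). The Mueller glia list went the other way, at 2939 to 3241 and 2349 to 2734 CPM (0 of 5 passed). Of all tested genes 1.27% passed in this comparison. The part of these cell types in the differences of Ahr and Ahrr was not tested.

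**Figure D5:**
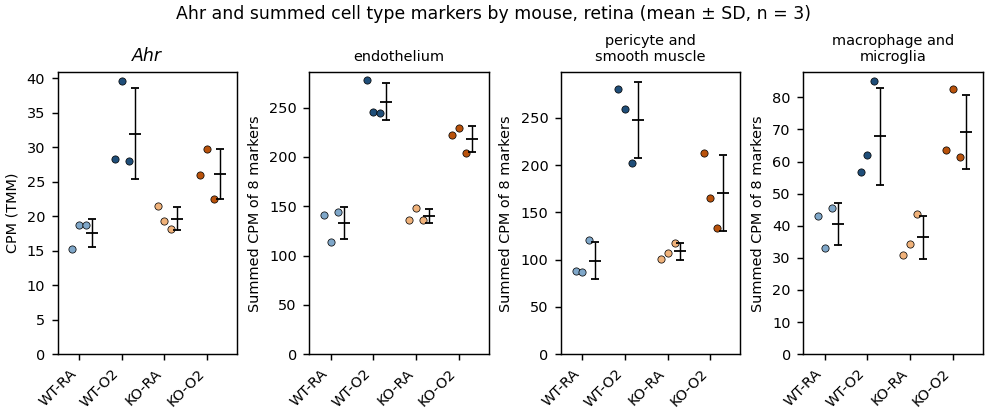
Ahr and the summed CPM of 8 endothelial, 8 pericyte and smooth muscle and 8 macrophage and microglia markers in each retina, with groups on the x axis, points for mice and bars for mean ± SD of 3 mice. All 4 quantities are higher in WT-O2 than in WT-RA without overlap, from 114 to 144 CPM to 245 to 278 CPM for the endothelial sum.

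The genes whose levels were most like those of each member were named by Pearson's r of log2 CPM over the 12 libraries of a tissue, as a description. These libraries share the exposure groups and the scaling. In the lung Ahr was most like Cnr2 (r = 0.980), a cannabinoid receptor gene, Rftn2 (0.962) and Maoa (0.962), the monoamine oxidase A gene. In the retina it was most like Myh9 (r = 0.982), the non-muscle myosin heavy chain gene, Pfkp (0.969), a phosphofructokinase gene, and Wwtr1 (0.967), the gene of the coactivator TAZ. Lung Cyp1b1 was most like Dlec1 (r = 0.946), the axonemal dynein gene Dnah10 (0.940) and Gm7173 (0.925), and retinal Cyp1b1 like Plxdc1 (0.869), Ifit1 (0.847) and Numbl (0.836). Arnt was most like Huwe1 (0.939), Sec24a (0.937) and Tex9 (0.935) in the lung and Myo7a (0.947), Kmt2a (0.941) and St3gal1 (0.933) in the retina. Tiparp was most like Rasgef1b (0.872), Vldlr (0.871) and Sntb1 (0.854) in the lung and Pola1 (0.912), P2ry13 (0.907) and H2-Q4 (0.902) in the retina. Retinal Ahrr was most like Mrps27 (0.936), Znrd1as (0.924) and Map3k12 (0.920). No gene was among the 3 named for the same member in both tissues.

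Reads of the members could mostly be told from other genes. The share of distinct 31-base stretches of a member's GENCODE M21 transcripts that also occur in transcripts of another gene was 1.61% for Ahr, 1.51% for Ahrr, 0.466% for Arnt and 0% for Cyp1b1. It was 5.52% for Cyp1a1 and 7.67% for Cyp1a2, shared with each other, and 4.48% for Tiparp, shared with the pseudogene 4931440P22Rik. That pseudogene lies on the opposite strand over exons of Tiparp, as does the lincRNA Gm48236 over exons of Ahr. Whether counting used strand is not given in the sources used here, so reads of Tiparp and Ahr cannot be fully told from these neighbours.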

How the data were processed

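RNA of 12 lungs and 12 retinas was sequenced as 150 bp paired-end reads. The authors used kallisto to estimate transcript abundance and tximport to bring it to genes. The expected counts they deposited, a table for each tissue, are estimated counts. Of the values above 0, 25.9% were whole in the lung (within 1e-06) and 0.061% in the retina, so retina values may have been rescaled within each library. The sources name both mm10 and GRCm39 as the genome, and versions and tximport settings are not given in the sources used here.

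Expected counts were rounded. Genes were named from a GRCm38 annotation by identifier. The 4 groups of each tissue (12 samples) entered 1 fit with their own means (R 4.3.3, edgeR 4.0.16, TMM, filterByExpr by group, robust quasi-likelihood F-test). P-values were adjusted by Benjamini-Hochberg over the genes tested, for 5 contrasts: hyperoxia in each genotype, genotype in each exposure, and their interaction. A gene passed at an adjusted p under 0.1. Standard errors were obtained by dividing each log2 fold change by the root of its F value. Tests were made within a tissue. DESeq2 1.42.0 and limma 3.58.1 (voom) served as alternatives, beside other scalings, no filter, a fit of the 2 groups alone, a Y-linked term, a 2-fold threshold and each mouse left out. The fits were also run on simulated counts with the same spread for all genes and no added transcripts in single libraries. That run does not bear on the lens-containing retinas or on doubtful labels.

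The members and lists were chosen with earlier results of these data known. Named genes are every member, at most 4 genes of each of 8 pathway lists (61 genes) per tissue with the smallest p over the hyperoxia contrasts, and the 3 genes most like each member with a mean of at least 1 CPM. Of the pathway genes so chosen, 2 are not reported here, though the counts of their lists include them. Other genes named for opposite directions in the tissues, and those in the count of passing genes, belong to these lists. The Y-linked threshold was 20 CPM summed. Each mouse is its own sample, and depth was 28763450 to 29604069 counts per lung and 24863225 to 29093010 per retina, so genes of a few CPM carry counting error.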

Additional observations from a re-analysis of the deposited data

Results flagged for a closer look

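Some genes moved in opposite directions after hyperoxia in the lung and the retina, with no overlap between the groups in either tissue. This difference between the tissues was not tested, since the tables were normalized separately and the exposures differed in oxygen, age and recovery. Ahr had log2 fold changes of -1.14 in the lung and 0.86 in the retina in WT, and of -0.62 and 0.41 in GSDMD-KO. In WT, Nqo1 was at 2.04 in the lung and -0.92 in the retina, Gstp1 at 0.41 and -0.58, Alas1, the first enzyme gene of heme synthesis, at 0.39 and -0.39, Hsp90ab1 at 0.20 and -0.23, and Cdkn1b at -0.93 and 0.10. In GSDMD-KO, Kmo, of the kynurenine route, was at -0.32 in the lung and 0.99 in the retina, at under 1 CPM in the retina. Of the retina values, those of Ahr and Gstp1 in WT passed. Of the lung values, those of Hsp90ab1 in WT and Kmo in GSDMD-KO did not pass. Groups did not overlap for 49.8% of all tested lung genes and 24.0% of retina genes in WT, and for 52.4% and 26.2% in GSDMD-KO.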

How the results depend on the processing

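The falls of Ahr in the lung, the rise of Cyp1b1 in the WT lung and the rise of Ahr in the WT retina passed under each normalization, filter, tool and left-out mouse tried. Values under the alternatives also covered library totals in place of TMM, DESeq2 and limma voom, a fit of 6 samples, and Y-linked expression as a term. With a fold change of at least 2 asked, the members that passed numbered 1 in the WT lung, 0 in the GSDMD-KO lung and 0 in the WT retina, and the pathway genes 15, 17, 0 and 0 in the WT lung, GSDMD-KO lung, WT retina and GSDMD-KO retina, as asking more of each gene must lower the count. The lung Arnt rise in WT lost its call without the filter (adjusted p = 0.130), in the 6-sample fit (0.124) and with the Y-linked term (0.101), and Ahrr between KO-O2 and WT-O2 retinas in the 6-sample fit (0.115, with 0 members past the threshold) and without the lens-containing retinas (0 members), all in edgeR, the latter setting being chosen after seeing the data. With library totals, 3 members passed in the WT retina (Ahr, Ahrr, Tiparp), as did 8 pathway genes there and 2 between KO-RA and WT-RA retinas. By DESeq2, 1 member passed the retina interaction. Pathway genes past the threshold by DESeq2 numbered 6 and 8 in the WT and GSDMD-KO retina, 1 for its interaction, 4 between KO-O2 and WT-O2, 4 between KO-RA and WT-RA retinas and 1 between KO-RA and WT-RA lungs. In the 6-sample fits they numbered 1 in the WT retina, 1 in the GSDMD-KO retina, 2 between KO-O2 and WT-O2 retinas and 1 between KO-RA and WT-RA lungs, with the Y-linked term 0 in the WT and 1 in the GSDMD-KO retina, and without the lens-containing retinas 1 in the GSDMD-KO retina and 1 between KO-O2 and WT-O2. The cause of these moves was not tested.

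With each mouse left out in turn, the members past the threshold ran from 1 to 2 in the GSDMD-KO lung and from 0 to 1 between KO-O2 and WT-O2 retinas. The pathway genes ran from 0 to 1 between KO-RA and WT-RA lungs, and in the retina from 0 to 4 in WT, 0 to 5 in GSDMD-KO, 0 to 3 between KO-O2 and WT-O2 and 0 to 2 for the interaction. Differences near 0 changed sign: lung Ahrr ran from -0.38 to 0.32 in WT and -0.27 to 0.21 in GSDMD-KO, lung Tiparp in WT from -0.30 to 0.11, the lung interaction of Arnt from -0.0902 to 0.000885, and retinal Arnt from -0.0562 to 0.16 in WT and -0.0672 to 0.11 in GSDMD-KO. Lung Ahrr also changed sign in GSDMD-KO with library totals (-0.0259) and in WT with the Y-linked term (0.0328). No paired analysis was possible because the mice carry their own numbers and groups share none. With 3 mice a group, the spread between mice limits Ahr, Arnt and Tiparp, and counts of 0 to 10 limit Cyp1a1 and Cyp1a2.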
